A study of Homo sapiens with 48 samples.

Results

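The initiation factor eIF2, the kinases that phosphorylate it and a cofactor of the phosphatase that reverses this were followed by Ribo-seq and total cytoplasmic RNA sequencing in SW480 cells, a human colorectal cancer line with a mutated APC gene. The genes were chosen by name: the eIF2 subunits EIF2S1, EIF2S2 and EIF2S3, the kinases EIF2AK1, EIF2AK2, EIF2AK3 and EIF2AK4, the phosphatase cofactor PPP1R15B, and EIF2A and EIF2D. All 10 were present in both tables, out of 11145 genes with ribosome-protected fragments (RPFs) and 11947 genes in total RNA, and 10836 genes were in both. Cells carried a lentiviral, doxycycline (DOX)-inducible shRNA: non-targeting shCTRL, shEIF2B1 against eIF2Bα, or shEIF2B4 against eIF2Bδ. DOX was given at 1 µg/ml for 5 days (+DOX), and DMSO served as its control (-DOX). There were 4 replicates of each of the 6 groups, each from a separate week, so that 24 lysates gave 48 libraries. Each knockdown rested on 1 shRNA in 1 cell line. The libraries of replicate 3 joined 2 sequencing runs. A knockdown response below is how far DOX moved a gene in that line beyond its move in shCTRL, and a gene was called when its limma adjusted p was under 0.1. Values are normalised and on a log2 scale. They come without read counts, so the depth behind each value is unknown.

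eIF2 is a heterotrimer of eIF2α (EIF2S1), eIF2β (EIF2S2) and eIF2γ (EIF2S3). Bound to GTP, it carries the initiator methionyl-tRNA to the small ribosomal subunit, and it leaves as eIF2-GDP, which eIF2B recharges with GTP. Stress kinases phosphorylate eIF2α at serine 51: HRI (EIF2AK1) responds to heme shortage and mitochondrial stress, PKR (EIF2AK2) to double-stranded RNA, PERK (EIF2AK3) to unfolded proteins in the endoplasmic reticulum, and GCN2 (EIF2AK4) to amino acid shortage. Phosphorylated eIF2 holds eIF2B in an inactive state, which lowers general initiation and starts the integrated stress response. PPP1R15B (CReP) keeps a constitutive eIF2α phosphatase at work, and PPP1R15A (GADD34) is its stress-induced counterpart. EIF2A and EIF2D are single-chain factors outside the trimer that can bring initiator tRNA to the ribosome or act in reinitiation and recycling. Sequencing measures mRNA and ribosome occupancy, so the phosphorylation of eIF2α was not measured in these libraries.

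The codon of the phosphorylated serine lies in an early exon of EIF2S1 (ENSG00000134001.15, chr14:67359997-67386516 of GRCh38, plus strand). It is codon 52 when the start codon is counted, and residue 51 in common use. The coding sequence around it is shown to place the site that the kinases and the phosphatase act on, with the serine codon in capitals and codons 47 to 56 printed 5′ to 3′ from GENCODE v29.
EIF2S1, serine 51: cttcttagtgaattaTCCagaaggcgtatc

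The members differ in codon composition, which is taken up again beside the RPF results. G or C ended 30.7% of the codons of EIF2AK2, 32.8% in EIF2A, 34.6% in EIF2S3, 37.3% in EIF2S1 and 39.5% in EIF2S2. It ended 42.7% in EIF2AK3, 46.4% in PPP1R15B, 47.9% in EIF2AK1 and 51.3% in EIF2AK4. EIF2D stood at 61.1%, and the median of all RPF genes was 59.6%, so 9 of the 10 members lay below the median. The middle 10 codons of the coding sequences with the lowest and the highest values show the contrast, with a G or C that ends a codon in capitals.
EIF2AK2, codons 272 to 281: ttaattggCtcaggtggatttggCcaagtt
EIF2D, codons 288 to 297: ctCacCagCactttCcttggCagCcaCatG

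EIF2AK2 has 2 such positions in its window and EIF2D has 8. EIF2AK2 (ENSG00000055332.19) lies at chr2:37099210-37157065 on the minus strand and EIF2D (ENSG00000143486.16) at chr1:206571292-206612463 on the minus strand. These sequences come from GENCODE v29, while the study used v38, and only EIF2A had the same transcript version in both. The leader of EIF2S1 in the v29 transcript holds 461 bases and 8 ATG triplets, against 302 bases and 5 triplets in EIF2AK3. PPP1R15B has 380 bases and 2 triplets, and EIF2S3 has 253 bases and 2 triplets. EIF2S2, EIF2AK2 and EIF2D hold 1 triplet each, and EIF2AK1, EIF2AK4 and EIF2A hold 0, as do 52.6% of all RPF genes.

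Per kilobase of coding sequence (log2 RPF value minus log2 CDS length), the eIF2 subunits and HRI had the highest RPF levels of the members. EIF2S2 was highest, at a mean of 10.4 over the 24 libraries, and was above EIF2S1 (9.51) in 24 of 24. EIF2S1 was above EIF2S3 (9.32) in 19 of 24 libraries, and EIF2S3 above EIF2AK1 (9.23) in 15 of 24, so the order of these neighbours was not the same in every library. EIF2A followed at 8.46, below EIF2AK1 in 24 of 24. PPP1R15B (7.0) was above EIF2AK2 (6.77) in 16 of 24 libraries, with a mean gap of 0.23 and an SD of 0.55. EIF2AK2 was above EIF2D in 20 of 24. EIF2D (6.12), EIF2AK4 (5.76) and EIF2AK3 (5.19) closed the order, EIF2D above EIF2AK4 and EIF2AK4 above EIF2AK3 in 24 of 24 libraries. HRI thus had the highest RPF level per length of the kinases and PERK the lowest, at 9.23 against 5.19. This level reflects the amount of mRNA as well as the ribosomes on each mRNA. Mean total RNA values, not corrected for length, were 12.26 for HRI and 8.46 for PERK. The log2 RPF value minus the log2 total RNA value, also not corrected for length, was -2.11 for HRI and -1.52 for PERK. Coding lengths are those of v29, and EIF2S3 has a near-identical copy, EIF2S3B, whose coding sequence matches it at 98.2% of bases and which is in both tables. How reads common to both genes were divided is not known here, so the level of EIF2S3 is uncertain.

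**Figure D1:**
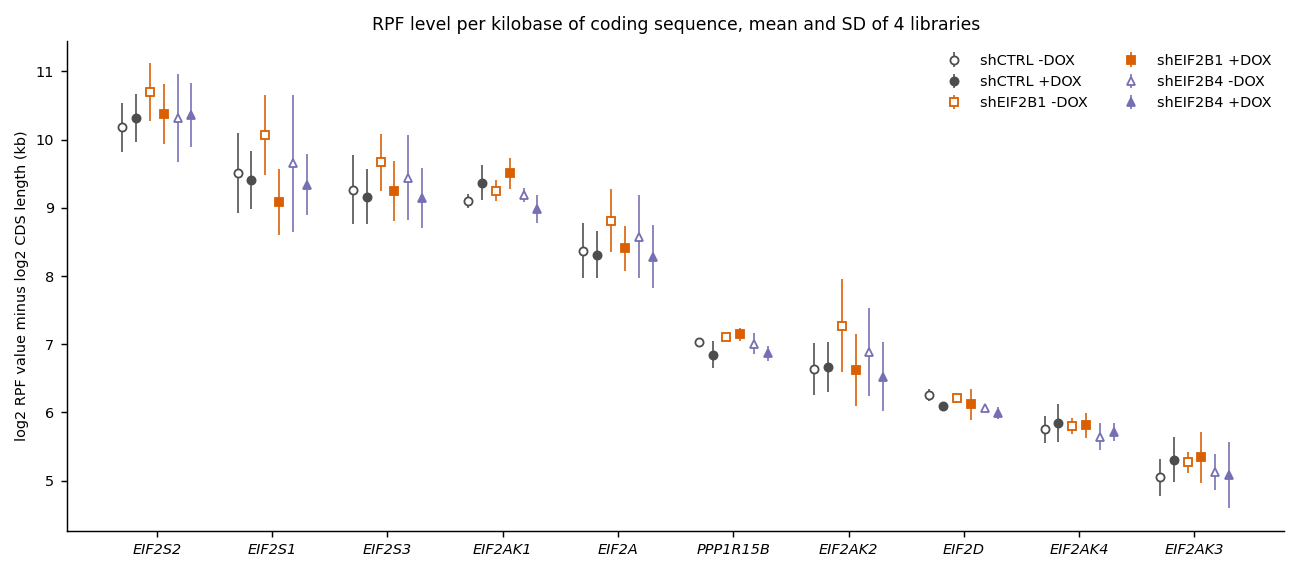
RPF level per kilobase of coding sequence (log2) for the 10 members, ordered by their mean, with 1 symbol per line and DOX group, open for -DOX and filled for +DOX. Symbols are means and bars the SD of 4 libraries. EIF2S2 is highest, and EIF2AK3 is lowest.

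Within the trimer, the per-length log2 RPF difference between EIF2S2 and EIF2S1 was 0.63 ± 0.19 (SD, n = 4) in shEIF2B1 -DOX and 1.28 ± 0.05 in shEIF2B1 +DOX. It was 0.67 ± 0.24 and 0.90 ± 0.14 in shCTRL, and 0.67 ± 0.37 and 1.03 ± 0.11 in shEIF2B4 (-DOX and +DOX, SD, n = 4 each). The highest values were thus in induced shEIF2B1 cells, at 1.22 to 1.33, and those of the induced shCTRL libraries, 0.78 to 1.05, did not reach them. EIF2S1 was below EIF2S3 in 4 of 4 induced shEIF2B1 libraries, by 0.09 to 0.27, and above it in 4 of 4 uninduced shEIF2B1 libraries and in 8 of 8 shCTRL libraries. In shEIF2B4 EIF2S1 was above EIF2S3 in 4 of 4 induced libraries, by 0.14 to 0.26, while the uninduced libraries ranged from -0.34 to 0.55, with 1 of 4 below 0. These ratios are given as values without a test.

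In the uninduced lines, the question was whether the lines differed before DOX. The RPF values of EIF2S1 in uninduced shCTRL were 8.79, 9.71, 9.12 and 10.09 in replicates 1 to 4, and 9.42, 10.46, 9.55 and 10.53 in uninduced shEIF2B1. The groups overlapped, but the shEIF2B1 value was higher in 4 of 4 weeks. EIF2AK2 read 7.02, 7.58, 7.07 and 7.80 in uninduced shCTRL and 7.44, 8.77, 7.42 and 8.38 in uninduced shEIF2B1. It too was higher in each week. EIF2S2 read 9.78, 10.44, 9.99 and 10.52 in uninduced shCTRL, and 10.29, 11.13, 10.39 and 10.99 in uninduced shEIF2B1. EIF2S3 read 9.18, 10.17, 9.53 and 10.21, and 9.86, 10.53, 9.76 and 10.53. The spread over weeks within a line was wider than the mean difference between the lines for each of these 4 genes, and the fit compared lines within weeks.

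In RPFs, 6 of 10 members were called higher in uninduced shEIF2B1 than in uninduced shCTRL and none lower, where 54.1% of all genes were called in either direction. They were EIF2AK2 at 0.63 ± 0.11 (log2 difference ± standard error, n = 4 per group, limma adjusted p = 0.000205), EIF2S1 at 0.56 ± 0.08 (adjusted p = 3.15e-05), EIF2S2 at 0.52 ± 0.07 (adjusted p = 4.42e-05), EIF2A at 0.44 ± 0.08 (adjusted p = 0.000405), EIF2S3 at 0.40 ± 0.08 (adjusted p = 0.000658) and EIF2AK3 at 0.22 ± 0.10 (adjusted p = 0.0678). EIF2AK1 missed the threshold at 0.15 (adjusted p = 0.102), and PPP1R15B (0.08), EIF2AK4 (0.05) and EIF2D (-0.05) were near 0. EIF2S3B, the copy of EIF2S3, was called at 0.37 (adjusted p = 0.00124). The median over the members was 0.31, against 0.00 over all genes. The call of EIF2AK3 was lost without replicate 1, 3 or 4 (adjusted p = 0.153, 0.224 and 0.21). Without the weekly replicate as a block none of the 6 was called (adjusted p = 0.346 to 0.397).

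In total RNA none of the members was called in this comparison, and none had an unadjusted p under 0.05 in limma (1.4% of all genes called). EIF2S1 differed there by 0.10, with a 95% confidence interval from -0.03 to 0.23, and EIF2AK2 by 0.00, from -0.12 to 0.12. In TE, the log2 RPF value minus the log2 total RNA value of the same lysate, the 6 members higher in RPFs were called higher again (42.6% of all genes called in TE). EIF2AK2 was higher in TE by 0.63 and EIF2S2 by 0.59, and without the replicate block none was called (adjusted p = 0.405 to 0.435). EIF2B1, the gene this shRNA targets, was already lower in the uninduced shEIF2B1 line, by a log2 change of -0.45 ± 0.08 in RPFs (adjusted p = 0.000194) and -0.29 ± 0.06 in total RNA (adjusted p = 0.0289).

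Uninduced shEIF2B4 cells gave no member called in RPFs (13.9% of all genes called, no member with an unadjusted p under 0.05), in total RNA (2.32% of all genes, 3 members with an unadjusted p under 0.05) or in TE (0.554% of all genes, 1 member). The values were 0.25 for EIF2AK2, 0.20 for EIF2A, 0.18 for EIF2S3, 0.15 for EIF2S1 and 0.14 for EIF2S2 in RPFs. The shEIF2B4 columns lie lower as a whole, with a median difference of -0.13 over all RPF genes, so these values are further above the median gene than they read. Replicate 1 decided this result. In that week EIF2S1 read 8.11 in uninduced shEIF2B4, the lowest of the 24 libraries, against 8.79 in uninduced shCTRL, and without replicate 1 EIF2S1 (0.42), EIF2S2 (0.33), EIF2S3 (0.29), EIF2AK2 (0.44) and EIF2A (0.43) were called higher, 5 of 10 members, where that fit called 47.6% of all genes.

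**Figure D2:**
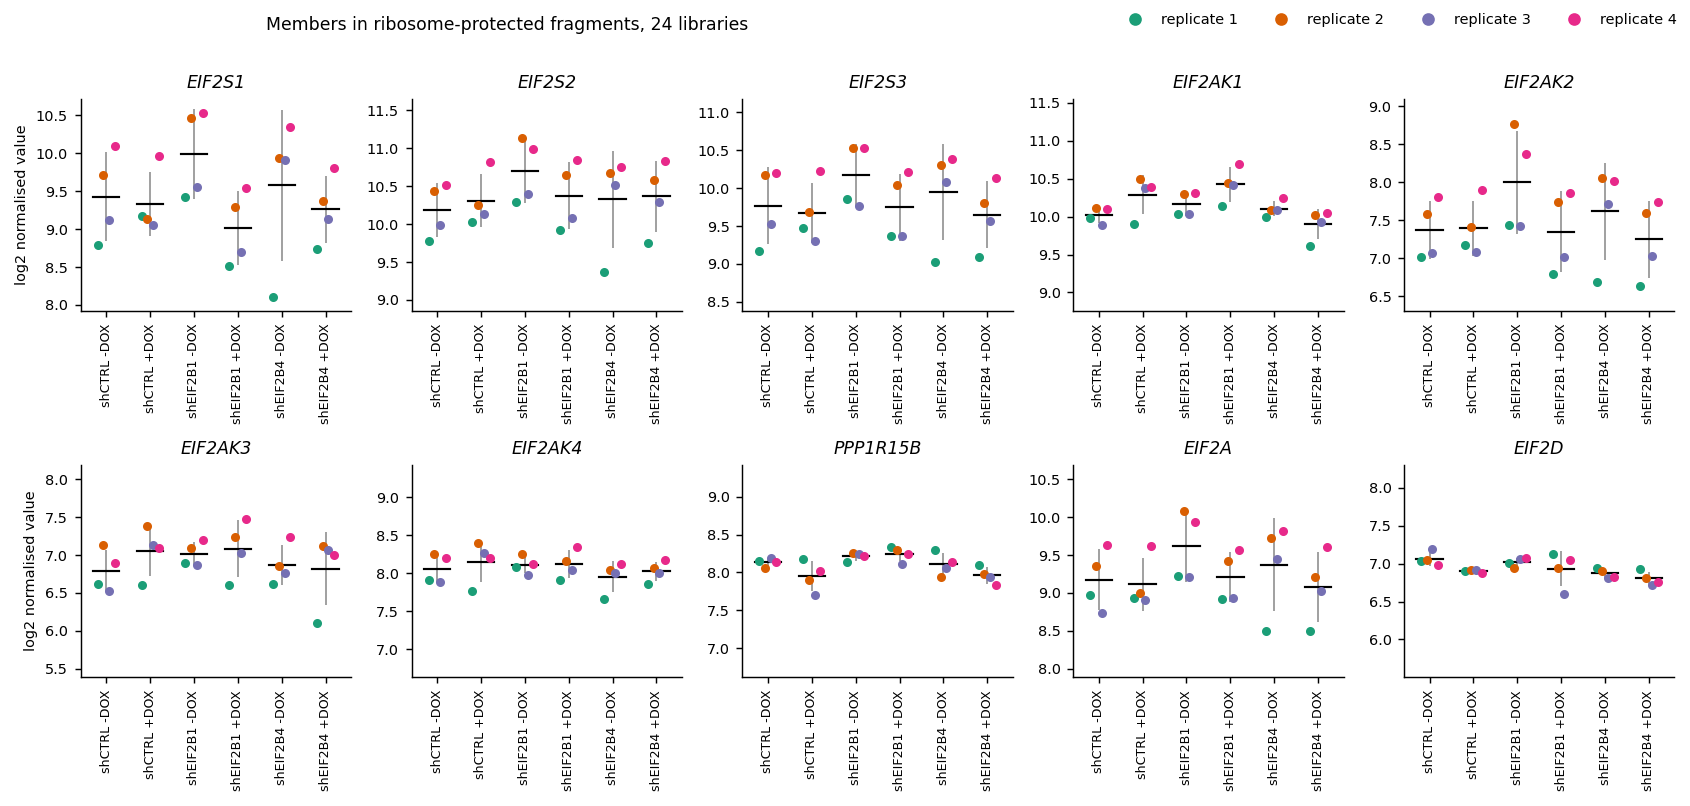
Log2 RPF values of the 10 members in the 24 libraries, with 1 colour per replicate, a black line at the mean of 4 and a grey bar for the SD. All panels span the same log2 height. The 3 subunits, EIF2AK2 and EIF2A span 1.51 to 2.43 over all libraries, while EIF2D and PPP1R15B span 0.60 and 0.63.

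On induction of shEIF2B1, the RPF values of EIF2S1 went from 9.42, 10.46, 9.55 and 10.53 to 8.51, 9.30, 8.69 and 9.54 in replicates 1 to 4. Each week thus went down, by 0.86 to 1.16. In shCTRL they went from 8.79, 9.71, 9.12 and 10.09 to 9.17, 9.13, 9.06 and 9.96. With the shCTRL change subtracted, the EIF2S1 response was -0.88 ± 0.17 (log2 ± standard error, 95% confidence interval -1.25 to -0.52, n = 4 per group, limma adjusted p = 0.00293), lower in 4 of 4 weeks. EIF2AK2 went from 7.44, 8.77, 7.42 and 8.38 to 6.79, 7.75, 7.01 and 7.86 in shEIF2B1. In shCTRL it read 7.02, 7.58, 7.07 and 7.80 without and 7.18, 7.42, 7.08 and 7.90 with DOX. Its response was -0.67 ± 0.19 (adjusted p = 0.0176), lower in 4 of 4 weeks. EIF2S2 went from 10.29, 11.13, 10.39 and 10.99 to 9.92, 10.64, 10.08 and 10.84, while in shCTRL it read 10.03, 10.26, 10.13 and 10.82 with DOX. Its response was -0.46 ± 0.14 (adjusted p = 0.0296), lower in 4 of 4 weeks, and its call was lost without replicate 1 (adjusted p = 0.146) or replicate 4 (adjusted p = 0.107).

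Thus 3 of 10 members were called in the shEIF2B1 response in RPFs, all lower, where 27.3% of all genes were called in either direction. Without the replicate block none of the 3 was called (adjusted p = 0.621 to 0.647). EIF2A, at -0.34 (adjusted p = 0.118), and EIF2S3, at -0.32 (adjusted p = 0.117), missed the threshold, and both were called without replicate 2 (adjusted p = 0.0662 and 0.05). The other kinases were at -0.19 for EIF2AK3, -0.09 for EIF2AK4 and -0.01 for EIF2AK1. PPP1R15B (0.22) and EIF2D (0.08) lay on the other side of 0. The median over the members was -0.26, against -0.01 over all genes. In total RNA no member was called (3.47% of all genes, 1 member, EIF2D, with an unadjusted p under 0.05). EIF2S1 stood at -0.27 there, with a 95% confidence interval from -0.61 to 0.06. Its total RNA values went from 10.96, 11.12, 10.86 and 11.11 to 10.62, 10.15, 10.55 and 10.72 in shEIF2B1, and from 10.69, 10.91, 10.83 and 11.21 to 10.91, 10.41, 10.43 and 10.98 in shCTRL. EIF2S1 RNA was lower after DOX in 4 of 4 weeks in shEIF2B1 and in 3 of 4 in shCTRL. Taken without the shCTRL correction, it fell by 0.50 in shEIF2B1 (adjusted p = 0.00626). In TE, 2 members were called lower, EIF2AK2 at -0.81 ± 0.20 (adjusted p = 0.0406) and EIF2S1 at -0.61 ± 0.17 (adjusted p = 0.0599), with 7.1% of all genes called. Both lost that call without replicate 1, 3 or 4, and adjusted p then lay between 0.129 and 0.267. Without the replicate block it was 0.906 for both.

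The uninduced shEIF2B1 libraries enter both comparisons, with opposite sign. A gene that stands high in them alone appears raised before DOX and lowered by it. Induced shEIF2B1 cells were therefore set against induced shCTRL cells, a comparison added after the values were seen. In RPFs 2 members were called, EIF2S1 lower at -0.32 ± 0.11 (adjusted p = 0.0897) and PPP1R15B higher at 0.30 ± 0.11 (adjusted p = 0.0879), with 10.5% of all genes called. Both calls were lost without the mean-variance trend of limma (adjusted p = 0.133 and 0.117) and without the replicate block (adjusted p = 0.999 and 0.838). EIF2S1 lost its call without replicate 1, 3 or 4 (adjusted p = 0.514, 0.252 and 0.215), and PPP1R15B without any 1 of the replicates (adjusted p = 0.152 to 0.252). EIF2AK2 stood at -0.04, EIF2S2 at 0.06, EIF2S3 at 0.08 and EIF2A at 0.10, so these members, which were higher before DOX, were close to shCTRL after it. No member was called in total RNA (7.64% of all genes, 1 member with an unadjusted p under 0.05) or in TE (0.388% of all genes, 1 member). PPP1R15B had RPF values of 8.33, 8.29, 8.11 and 8.24 in induced shEIF2B1 and 8.17, 7.90, 7.70 and 8.02 in induced shCTRL, higher in 4 of 4 weeks, although the ranges overlapped.

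**Figure D3:**
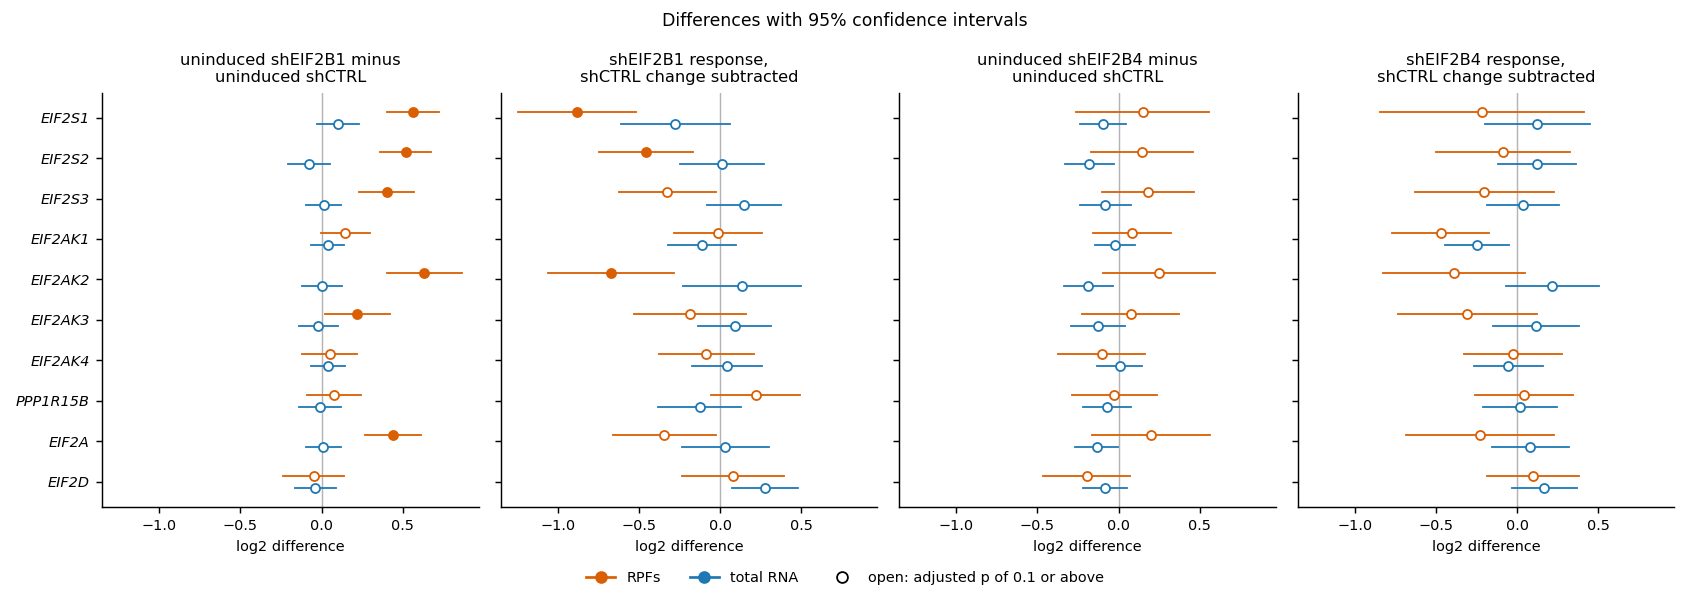
Log2 differences of the 10 members in RPFs (orange) and total RNA (blue) for the uninduced lines against uninduced shCTRL and for both knockdown responses. Lines are 95% confidence intervals, and filled points have a limma adjusted p under 0.1. In the shEIF2B1 line EIF2S1, EIF2S2 and EIF2AK2 are filled in RPFs above 0 before DOX and below 0 in the response, while every total RNA point is open.

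After shEIF2B4, no member was called in RPFs (2.75% of all genes, 1 member with an unadjusted p under 0.05), in total RNA (5.4% of all genes, 1 member) or in TE (0.0923% of all genes, 1 member). The member nearest to the threshold in RPFs and in total RNA was HRI. EIF2AK1 RPF values went from 10.00, 10.09, 10.09 and 10.25 to 9.61, 10.02, 9.93 and 10.05 in shEIF2B4, and from 9.99, 10.11, 9.89 and 10.10 to 9.91, 10.49, 10.37 and 10.39 in shCTRL. They were lower after DOX in 4 of 4 weeks in shEIF2B4 and higher in 3 of 4 in shCTRL. The response was -0.47 ± 0.14 in RPFs (adjusted p = 0.121) and -0.25 ± 0.09 in total RNA (adjusted p = 0.179). In RPFs it was called with all 24 libraries in one fit (adjusted p = 0.05) and without replicate 1 (-0.53, adjusted p = 0.0184). The latter fit also called EIF2AK2 (-0.45, adjusted p = 0.0783). With all replicates, the EIF2AK2 response was -0.39 ± 0.21 in RPFs (limma adjusted p = 0.37) and -0.61 ± 0.21 in TE (adjusted p = 0.193). It was lower in 4 of 4 weeks in both. EIF2S1 went both ways, from 8.11 to 8.74 in week 1 and from 9.93, 9.91 and 10.35 to 9.37, 9.13 and 9.81 in the others, and its response was -0.21 ± 0.30 with a 95% confidence interval from -0.84 to 0.41.

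In induced shEIF2B4 cells against induced shCTRL cells, also added after the values were seen, EIF2AK1 was the member called, lower in RPFs by a log2 change of -0.39 ± 0.09 (adjusted p = 0.00672, 29.4% of all genes called) and lower in total RNA by -0.27 ± 0.06 (adjusted p = 0.00896, 30% of all genes called). In total RNA EIF2AK1 read 12.15, 12.14, 12.05 and 12.05 in induced shEIF2B4 and 12.35, 12.46, 12.29 and 12.35 in induced shCTRL, and the groups did not overlap. Without the replicate block the call in RPFs was lost (adjusted p = 0.355) and that in total RNA was kept (adjusted p = 0.0194). Before DOX these total RNA values were 12.42, 12.18, 12.16 and 12.20 in shEIF2B4 and 12.38, 12.21, 12.22 and 12.24 in shCTRL, which overlapped. With each library centred on its median the differences after DOX were -0.27 in RPFs (adjusted p = 0.0661) and -0.24 in total RNA (adjusted p = 0.0169). In TE no member was called (3.03% of all genes, no member with an unadjusted p under 0.05). EIF2AK1 shares 532 exon bases with AIMP2 on the opposite strand, and whether counting used strand is not stated. Smaller overlaps were found for EIF2S1 with ATP6V1D (269 bases), EIF2A with SERP1 (153 bases) and EIF2AK2 with GPATCH11 (35 bases).

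The knockdown responses, which share the shCTRL libraries, were then compared with each other. No member was called in RPFs (0.00897% of all genes, 2 members with an unadjusted p under 0.05), in total RNA (0.1% of all genes, 1 member) or in TE (0% of all genes, 1 member). The DOX change of EIF2S1 in RPFs was lower in shEIF2B1 than in shEIF2B4 (log2 difference -0.67, 95% confidence interval -1.23 to -0.10, limma adjusted p = 0.746). Mean RPF values of EIF2S1 were 9.99 in shEIF2B1 and 9.58 in shEIF2B4 before DOX, and 9.01 and 9.26 after it. For EIF2AK1 the DOX changes in RPFs differed by 0.46, from 0.19 to 0.72, with a limma adjusted p of 0.746. A difference between the knockdowns was therefore not shown for any member.

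In shCTRL, DOX itself gave no member called in RPFs (9.85% of all genes, 2 members with an unadjusted p under 0.05), in total RNA (4.44% of all genes, 2 members) or in TE (0.388% of all genes, no member). The RPF changes were 0.27 for EIF2AK1, 0.26 for EIF2AK3, -0.19 for PPP1R15B, -0.17 for EIF2D and -0.10 for EIF2S1. Week 1 decided this count too. Without replicate 1, 5 of 10 members were called in RPFs, EIF2AK1 (0.38) and EIF2AK3 (0.35) higher, and EIF2S1 (-0.26), EIF2S3 (-0.23) and PPP1R15B (-0.25) lower, and 3 in total RNA, EIF2S1 (-0.38) lower, and EIF2AK3 (0.21) and EIF2AK4 (0.23) higher. That fit called 31.6% of all genes in RPFs and 20.5% in total RNA.

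**Figure D4:**
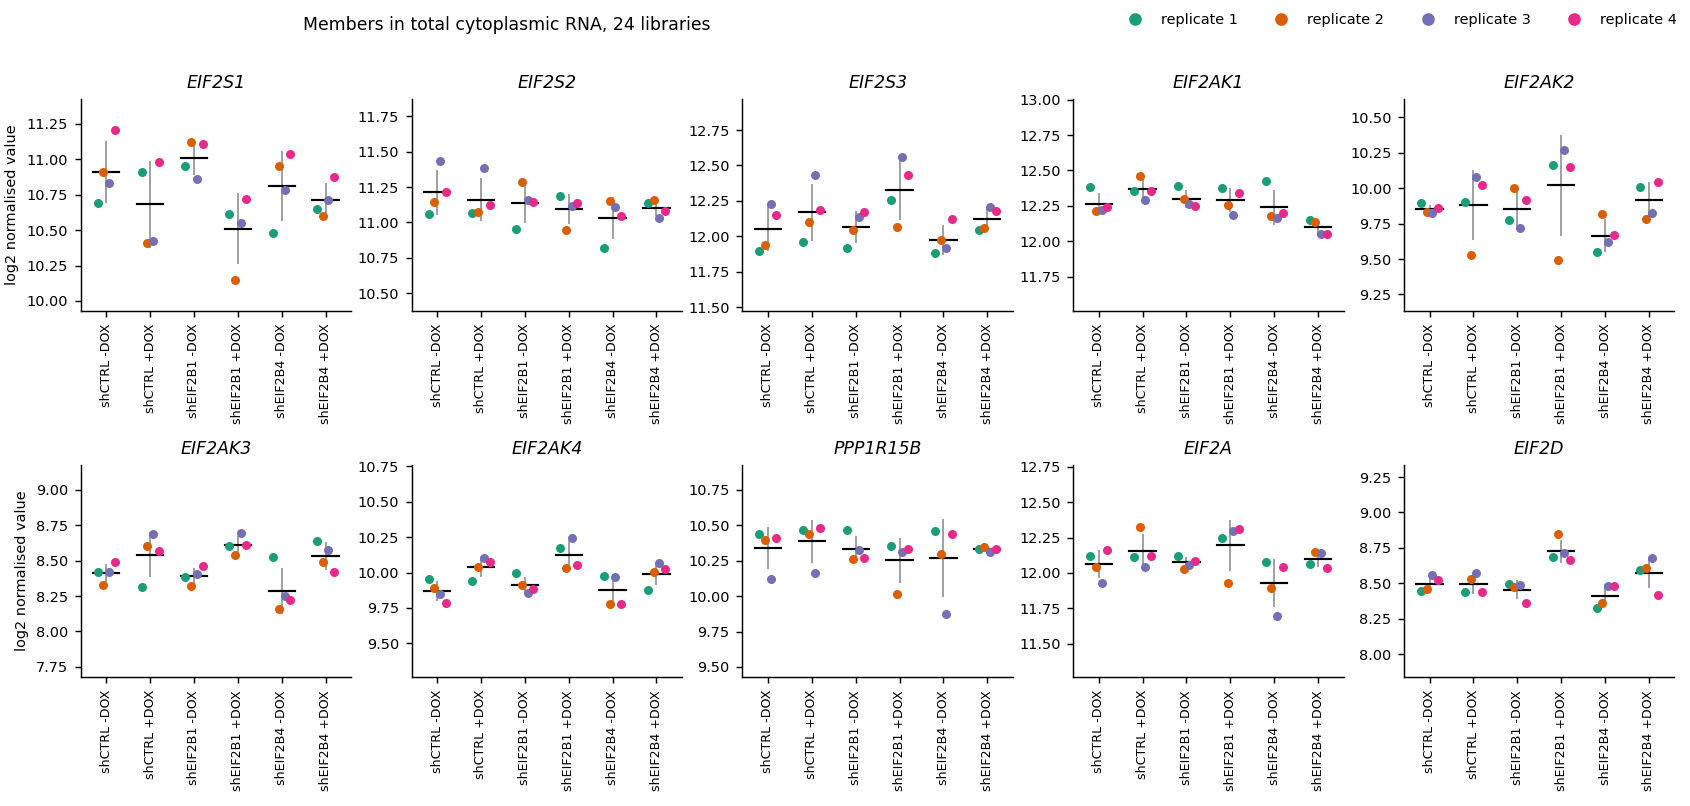
Log2 total RNA values of the 10 members in the 24 libraries, with 1 colour per replicate, a black line at the mean of 4 and a grey bar for the SD. All panels span the same log2 height, which is smaller than in the RPF plot. EIF2S1 is lower in +DOX than in -DOX shEIF2B1 libraries, and the other members span 0.42 to 0.77 over the 24 libraries.

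Across the 24 libraries the members fell into sets in RPFs. EIF2S1, EIF2S2, EIF2S3, EIF2A and EIF2AK2 varied together, with Pearson r between 0.90 and 0.96 for the 10 pairs. In total RNA r for the same pairs lay between -0.17 and 0.65. EIF2AK1, EIF2AK3 and EIF2AK4 had r between 0.73 and 0.83 in RPFs and between 0.16 and 0.70 in total RNA. Between these kinases and the first set, r in RPFs ran from 0.27 (EIF2S1 with EIF2AK1) to 0.70 (EIF2S2 with EIF2AK4). The sets were thus not sharply apart. EIF2D and PPP1R15B followed neither set, with r between -0.12 and 0.02 against the 5 genes of the first and between -0.37 and -0.01 against the 3 kinases. The libraries share weeks and lines, so these correlations are descriptions and carry no test. The RPF genes nearest to EIF2S1 in pattern were HNRNPA2B1 (r = 0.982), HNRNPH3 (0.981) and EIF3E (0.98), those nearest to EIF2S2 were PSMD14 (0.984), PDS5A (0.977) and NAMPT (0.975), and those nearest to EIF2S3 were EIF3M (0.989), PSMA6 (0.984) and TXNDC9 (0.981), over 24 libraries each. Such likeness was common, since 629, 715 and 777 genes exceeded r = 0.9 with EIF2S1, EIF2S2 and EIF2S3.

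This shared pattern is also the main axis of the RPF libraries. The first principal component of the 500 most variable RPF genes, computed without the members, held 67.6% of their variance. EIF2S1 had r = 0.957 with it, and 0.538% of all genes had a larger r. EIF2S3 (0.921), EIF2AK2 (0.917), EIF2A (0.908) and EIF2S2 (0.816) followed, and EIF2D (0.094) and PPP1R15B (0.008) were unrelated to it. The 5 members that varied together also differed between weeks. Over the 6 groups, mean RPF values of EIF2S1 were 8.79, 9.65, 9.24 and 10.05 in replicates 1 to 4. Those of EIF2AK2 were 6.96, 7.86, 7.22 and 7.95. EIF2S2, EIF2S3 and EIF2A were likewise higher in replicates 2 and 4 than in replicates 1 and 3. These 5 members are the 5 with the fewest codons ending in G or C. Over the 10 members, the log2 RPF difference between uninduced shEIF2B1 and uninduced shCTRL had r = -0.907 with this codon share, as a description. Over 10801 RPF genes it was -0.795. In the shEIF2B1 response the sign was opposite, with r = 0.728 over the members and 0.61 over all genes. In induced shEIF2B1 against induced shCTRL it was 0.192 over the members and -0.065 over all genes. For uninduced shEIF2B4 against uninduced shCTRL, r in RPFs was -0.964 over the members and -0.735 over all genes. In the shEIF2B4 response it was 0.565 and 0.519, and after DOX against shCTRL -0.254 and -0.0857. In total RNA r was -0.18 over the members and -0.22 over 10502 genes in the uninduced shEIF2B1 comparison. The uninduced shEIF2B4 comparison gave 0.612 and 0.334 in total RNA. For the difference between the responses, total RNA gave 0.43 and 0.544, and RPFs 0.463 and 0.311.

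When a quadratic trend on this codon share was removed from each RPF library, an alternative added after the values were seen, EIF2S1 remained the lowest member of the shEIF2B1 response, at -0.56 (adjusted p = 0.0337). EIF2AK2 (-0.24, adjusted p = 0.321) and EIF2S2 (-0.17, adjusted p = 0.397) were no longer called, and PPP1R15B was called higher at 0.39 (adjusted p = 0.0828). This fit called 10% of all genes, against 27.3% with the trend left in. EIF2S1 also stayed lower in induced shEIF2B1 against induced shCTRL, at -0.35 (adjusted p = 0.0325), where 11.6% of all genes were called. In the uninduced shEIF2B1 comparison 2 members stayed higher, where 17.1% of all genes were called. They were EIF2S1 at 0.21 (limma adjusted p = 0.0618) and EIF2S2 at 0.21 (adjusted p = 0.0563). The others lay between -0.11 and 0.15, with EIF2S3 at 0.00 and EIF2A at 0.00. The part of codon composition in the members' differences was not tested beyond this.

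The genes around eIF2 were grouped by their role. Of 11 partners of eIF2 in initiation, 7 were called lower in RPFs in the shEIF2B1 response and none higher, with a median of -0.57 over the list, against 27.3% of all genes called in either direction and a median of -0.01. Without the replicate block 0.449% of all genes were called in this response and 0% in the uninduced shEIF2B1 comparison in RPFs. EIF5B, the GTPase that joins the ribosomal subunits, was at -0.98 ± 0.21 (adjusted p = 0.00399), DENR at -0.83 ± 0.17 (adjusted p = 0.00372) and its partner MCTS1 at -0.66 ± 0.15 (adjusted p = 0.00567). METAP2, which removes the initiator methionine and binds eIF2, was at -0.76 ± 0.19 (adjusted p = 0.0109), and BZW2, a mimic of eIF5, at -0.57 ± 0.13 (adjusted p = 0.00747). In uninduced shEIF2B1 against uninduced shCTRL 9 of the 11 were called higher in RPFs, where 54.1% of all genes were called in either direction. In induced shEIF2B1 against induced shCTRL 1 of 11 was called, where 10.5% of all genes were. It was EIF5 (higher at 0.46, limma adjusted p = 0.00612), chosen after its value was seen. After shEIF2B4 limma called none of the 11 in RPFs (3 with an unadjusted p under 0.05) or in total RNA (1 with an unadjusted p under 0.05). It called 2.75% of all genes in RPFs and 5.4% in total RNA there.

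Among 12 regulators of the kinases, 4 were called lower and 1 higher in RPFs in the shEIF2B1 response, beside the same 27.3% of all genes. The uninduced shEIF2B1 libraries enter this response too. How these regulators stood against shCTRL before DOX and after it is not given here. HSP90AA1, a chaperone that eIF2 kinases need, was at -1.26 ± 0.28 (adjusted p = 0.00588) and HSP90AB1 at -0.81 ± 0.24 (adjusted p = 0.0237). OMA1, the mitochondrial protease upstream of DELE1, was at -0.65 ± 0.18 (adjusted p = 0.0157), whereas DELE1, which activates HRI, was called higher at 0.40 (adjusted p = 0.0357). NCK1, an adaptor that binds PERK, was the other gene called lower (-0.48, adjusted p = 0.0328). After shEIF2B4 limma called none of the 12 in RPFs (2 with an unadjusted p under 0.05) or in total RNA (4 with an unadjusted p under 0.05). The shares of all genes called there were 2.75% in RPFs and 5.4% in total RNA. Of 4 phosphatase genes, PPP1R15A was called higher in both knockdowns and both measures: at 1.08 ± 0.13 in RPFs (adjusted p = 2.99e-05) and 0.74 ± 0.12 in total RNA (adjusted p = 0.0021) after shEIF2B1, and at 1.41 ± 0.15 (adjusted p = 3.49e-05) and 0.64 ± 0.16 (adjusted p = 0.0296) after shEIF2B4. The constitutive cofactor PPP1R15B was called in neither response. The catalytic subunit PPP1CC was lower at -0.40 (adjusted p = 0.0249) in RPFs after shEIF2B1. Of the 5 eIF2B subunits, EIF2B1 was called lower after shEIF2B1, at -0.53 in RPFs (adjusted p = 0.0109) and -0.67 in total RNA (adjusted p = 0.0263). EIF2B4 was called lower after shEIF2B4 in total RNA, at -0.49 (adjusted p = 0.0634), and stood at -0.48 in RPFs (adjusted p = 0.236).

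The cell line was checked against 9 epithelial and colorectal markers, of which 7 were in both tables, with KRT18, KRT8, KRT19 and EPCAM above 95% of RPF genes and CDH1 above only 17.6%. VIL1 and LGR5 were not in the tables, nor were any of 5 markers of other cell types.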

How the data were processed

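Both tables were deposited as log2-scale normalised values, which the authors made with DESeq2, separately for RPFs and total RNA, so levels were compared only within a table. The study names DESeq2's regularized logarithm for its plotted log2 read counts, and whether the tables hold the same transform is not stated. Upstream, the authors aligned reads to GENCODE v38 protein-coding transcripts with Bowtie2, quantified total RNA with RSEM, chose for each gene the transcript with the highest expression and counted RPF reads on its CDS. The submitters' processing notes also name SAMtools 1.9, cutadapt 1.18 and R 4.3.1. No counts were given, so depth is unknown and no counting interval was possible.

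Groups and replicates were taken from the sample labels, and no library was left out. The fits used limma 3.58.1 under R 4.3.3 (lmFit, then eBayes with a mean-variance trend) over all genes of a table, with the replicate as a block as in the study's own design. Responses are the interaction of shRNA and DOX over 16 libraries, line and DOX comparisons used 8 libraries, and the comparison of responses used 24. All p-values are two-sided and Benjamini-Hochberg adjusted over all genes tested, with calls under 0.1. Replicates come from separate weeks. Same-numbered libraries, less their group means, correlated across genes by more than 0.1 in 52 of 60 pairs in RPFs, 37 of 60 in total RNA and 55 of 60 in TE.

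Comparisons of the 2 knockdowns with shCTRL share the shCTRL libraries. Members, gene lists and tests were chosen with earlier results of these data known. All 10 members are named. Values in each sample are given for the 3 subunits and for called members in the comparisons the text turns on, and genes of the lists when called in a response, at most 10 by adjusted p per response, with EIF2B1 and EIF2B4. DELE1, NCK1, PPP1CC and EIF5 were named outside that limit, after their values were seen. Codon shares, positions and sequences were computed from GENCODE v29 on GRCh38, where 96.9% of RPF genes had a CDS. The fit was also run on simulated RPF data with known differences and noise drawn independently for each gene. The real libraries share variation across genes, so that run does not show how the calls hold under it. Python 3.11.15 and matplotlib 3.10.9 were used for the other steps.

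Alternatives were no block, no trend, the lowest 25% of genes left out, centring on the median, a fit over all 24 libraries, responses without the shCTRL subtraction, a threshold of 0.05, leaving out each replicate and, added after the values were seen, removal of the trend on codon share.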

Additional observations from a re-analysis of the deposited data

Results flagged for a closer look

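In each group of 4 libraries, the highest or lowest value of a member was compared with the other 3 by Dixon's ratio of gap to range. Of 120 groups tested in RPFs and total RNA, 11 passed the 95% critical value, and chance alone gives about 1 in 20. In RPFs, replicate 4 of induced shCTRL stood high for EIF2S1 (9.96, the others 9.06 to 9.17) and for EIF2A (9.62, the others 8.90 to 8.99), and replicate 1 of induced shEIF2B4 stood low for EIF2AK3 (6.10, the others 7.0 to 7.12).

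In total RNA, replicate 2 of induced shEIF2B1 stood low for 3 members: EIF2AK2 (9.49, the others 10.15 to 10.27), EIF2A (11.93, the others 12.25 to 12.31) and PPP1R15B (10.01, the others 10.31 to 10.35). Replicate 1 stood high for EIF2AK1 in both uninduced shCTRL (12.38, the others 12.21 to 12.24) and uninduced shEIF2B4 (12.42, the others 12.16 to 12.20). Replicate 3 stood low for PPP1R15B in uninduced shCTRL (10.12, the others 10.40 to 10.44) and in induced shCTRL (10.16, the others 10.44 to 10.48). Replicate 4 of uninduced shEIF2B1 stood low for EIF2D (8.36, the others 8.48 to 8.50).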

How the results depend on the processing

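Of 252 counts of called members recomputed under an alternative, 213 stayed within 1.5 times the reported count and 39 moved. Most reported counts were 0, and a count of 0 that remained 0 is included in those that stayed. This tally therefore says little about the counts above 0. The counts of the shEIF2B1 response in TE and of the induced shEIF2B1 comparison in RPFs moved under most alternatives. Of 2480 values of single members, 65 lost a call, 50 gained one and 3 turned direction, and a further 162 changed sign with no call in either fit. Without the replicate block the counts fell to 0 in the shEIF2B1 response (0.449% of all genes called in RPFs, 0% in TE). They also fell to 0 in the uninduced shEIF2B1 comparison (0% in RPFs and in TE). In RPFs the same held for the induced shEIF2B1 comparison (0.7%) and the induced shEIF2B4 comparison (1.61%). EIF2AK1 kept its call in total RNA in the induced shEIF2B4 comparison (21.9% of all genes called). The adjusted p of EIF2AK1 there was 0.0194. Without the shCTRL subtraction the shEIF2B1 response had 6 members called in RPFs, 4 in total RNA and 5 in TE (49.4%, 34.4% and 17.1% of all genes called), and the shEIF2B4 response 3, 2 and 3 (23.8%, 34.4% and 6.21%). There EIF2AK1 turned to 0.25 after shEIF2B1 in RPFs (adjusted p = 0.037).

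With the trend on codon share removed, the uninduced shEIF2B1 comparison had 2 members called in RPFs (17.1% of all genes called) and 0 in TE (2.97%). The shEIF2B1 response had 0 in TE (0.209%), and the induced shEIF2B1 comparison had 1 in total RNA, EIF2D (12%). EIF2S3 turned to -0.0031 and EIF2AK3 to -0.032 in the uninduced shEIF2B1 comparison in RPFs, neither called. With the lowest 25% of genes left out, no member dropped out in RPFs or total RNA. In TE, where genes were ranked by mean TE, EIF2S3, EIF2AK1, EIF2AK2, PPP1R15B and EIF2A were left out. They include called members, EIF2AK2 in the shEIF2B1 response and EIF2AK2, EIF2S3 and EIF2A in the uninduced shEIF2B1 comparison. TE counts were then 1 in the shEIF2B1 response (6.14% of all genes called) and 3 in the uninduced shEIF2B1 comparison (41.8%). The fit over all 24 libraries called 1 member after shEIF2B4 in RPFs (4.4% of all genes called) and 0 after shEIF2B1 in TE (0.406%). The induced shEIF2B1 count in RPFs was 0 without the trend (9.83% of all genes called). It was also 0 at a threshold of 0.05, where the shEIF2B1 response in TE had 1. Apart from the members left out in TE, the cause of these moves was not tested.

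Leaving out 1 replicate at a time, counts are given with the share of all genes called in brackets. In RPFs they ranged from 2 to 5 in the shEIF2B1 response (13.7% to 24.4%) and 0 to 2 in the shEIF2B4 response (0.386% to 14.5%). In shCTRL the range was 0 to 5 (0.0269% to 31.6%), and in uninduced shEIF2B4 0 to 5 (0% to 47.6%). Induced shEIF2B1 gave 0 to 1 (5.92% to 10.1%) and induced shEIF2B4 1 to 2 (13.9% to 38%). Total RNA in shCTRL gave 0 to 3 (0.0251% to 20.5%). TE gave 0 to 5 in the shEIF2B1 response (0% to 12.6%) and 0 to 2 in the shEIF2B4 response (0% to 13.1%). In uninduced shEIF2B4 TE gave 0 to 5 (0.00923% to 45.4%). Over the alternatives, the limma adjusted p of EIF2S1 in the shEIF2B1 RPF response ranged from 1.43e-08 to 0.621, the latter without the block. These alternatives include the fit without the shCTRL subtraction, which tests the DOX change in the shEIF2B1 line alone. With 1 replicate left out at a time it ranged from 0.000315 to 0.0278. Since no counts were given, no limit from depth can be set.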
